A study of Mus musculus with 16 samples.

Results

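The sirtuins Sirt1 to Sirt7 are a family of NAD-dependent lysine deacylases. They were taken as all non-control probes whose gene name on the array was Sirt1 to Sirt7, which gave 11 probes of 7 genes among the 34650 gene names on the array. RNA came from the gastrocnemius, a muscle of the calf. The mice, 3 wild-type (WT, Eif6+/+) and 3 Eif6+/- (Het), were untreated male C57BL6 littermates of 8 to 16 weeks on standard chow. Het mice carry 1 functional copy of Eif6 in all tissues. Eif6 encodes eukaryotic initiation factor 6, which binds the large ribosomal subunit and keeps it from joining the small one. Each mouse gave total RNA of the whole muscle and RNA of the pooled sucrose gradient fractions that hold polysomes, the transcripts that carry several ribosomes. RNA of the monosome fraction, the transcripts that carry 1 ribosome, was analysed from WT mice 1 and 2 and from Het mice 1 and 3, so that 16 arrays in 6 groups were used.

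Sirtuins remove acetyl, succinyl and related groups from lysines and split a molecule of NAD each time they do so, which ties their activity to the NAD supply of the cell. Sirt1, Sirt6 and Sirt7 act mainly in the nucleus and on chromatin, Sirt2 mainly in the cytosol, and Sirt3, Sirt4 and Sirt5 in the mitochondria. In skeletal muscle the family is best known for its part in the switch between glucose and fat oxidation and in the control of mitochondrial enzymes.

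Values are log2 signals after quantile normalization over the 12 whole-muscle and polysome arrays or, where monosomes are compared, over all 16 arrays. A log2 signal says how bright 1 probe was, and levels of different genes were not compared. Polysome loading is the difference, in 1 mouse, of the log2 signal of polysomes from that of whole muscle, and is above 0 where polysomes were brighter. Genes were tested with limma over all probes that exceeded background clearly on each array of 1 or more groups, and p-values were adjusted by the Benjamini-Hochberg method over all of them. A gene was also counted when it passed the threshold the study used for polysomes, an absolute log2 difference above 1 with an unadjusted p under 0.05. The brightest probe stood for a gene in all counts. With 3 mice against 3, the smallest p an exact permutation test can give is 0.1.

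The arrays were not equally bright. The 75th percentile of the spot intensity ran from 12.7 to 150 over the 16 arrays, and 23.5% to 45.9% of spots were well above background. The Het whole-muscle arrays, at 13.5, 19.1 and 33.0, were all dimmer than the WT whole-muscle arrays, at 42.3, 57.1 and 150. WT polysome replicate 2 and WT monosome replicate 2 stood apart. On them the median log2 signal of 5′ probes minus 3′ probes of the same transcript was -0.23 and 0.27, against -1.68 to -1.17 on the other 14 arrays (228 probe pairs at least 500 bases apart), and the sirtuin fits were repeated without each mouse. Eif6, the targeted gene, had a log2 difference of -0.92 between Het and WT whole muscle (SE 0.25, adjusted p = 0.36), of -1.31 in polysomes (SE 0.25, adjusted p = 0.193) and of -1.82 in monosomes (SE 0.35, adjusted p = 0.0451). All 8 skeletal muscle marker genes were well above background on every array. Marker signals were summed before the log2 was taken, so the brightest genes of a list weigh most. The log2 of the summed signal of the 6 blood marker genes ran from 14.36 to 15.42 on WT polysome arrays and from 13.34 to 13.79 on Het polysome arrays. It ran from 13.32 to 13.97 in WT and 13.62 to 13.82 in Het whole muscle. Of these 6 genes, 1 was above background on no array. The polysome ranges of the genotypes were also apart for the summed skeletal muscle markers, 19.33 to 19.37 in WT and 19.59 to 19.62 in Het mice, and for 6 fibroblast markers, 15.80 to 15.85 and 15.19 to 15.36. By the group means, 8 of the 8 muscle markers were higher in Het polysomes and 7 had higher loading in Het muscle. The part of these differences in the sirtuin results was not tested. In bulk muscle, fewer cells of a type and less RNA per cell cannot be told apart.

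All 7 genes had at least 1 probe that could be tested. A second probe of Sirt6 was well above background on 5 of 16 arrays and another of Sirt7 on 1 of 16, and neither was tested. The second probe of Sirt4 was tested but was above background on 8 of 16 arrays. The 6 stretches shown here, each 30 bases of a 60-base probe as the array design lists it from its 5′ end, are shown for the pairs of tested probes of Sirt4 and Sirt7, which did not always give the same picture, and for Sirt3 and Sirt6, which passed the study's threshold in monosomes. Capitals mark AATAAA, the hexamer that precedes most poly(A) sites in mammals.
Sirt3 brightest probe: ctacaacatcatttcttgcatgaAATAAAc
Sirt4 brightest probe: ggggcaacgtggagatagatctcactcatt
Sirt4 second probe: ttaatagacccgcggagacagcactctgat
Sirt6 brightest probe: gcAATAAAtacaaaatcccttccattcttt
Sirt7 brightest probe: cttccagccaaagcccagattaagacatag
Sirt7 second probe: tctgtattgggtatgcggcacagggagaat
The brightest probes of Sirt3 and Sirt6 held AATAAA, as did 10.1% of all 55681 probes, while 3.74% held its reverse complement TTTATT. The file coordinates, on mm9, put the 2 bright Sirt7 probes at chr11:120480463-120480522 and chr11:120479736-120479795 on the minus strand. The brighter of them is assigned to an Ensembl transcript, from its base 161, and the other to the RefSeq transcript of Sirt7, from its base 1605. Both Sirt4 probes, at chr5:115928163-115928222 and chr5:115929657-115929716 on the minus strand, are assigned to 1 RefSeq transcript, from its bases 1441 and 1140. The Sirt6 probe lies at chr10:81084531-81084589 on the minus strand and starts at base 1644 of the RefSeq transcript. Whether these positions are coding or untranslated was not analysed here.

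The first question was whether loading onto polysomes differed with the Eif6 genotype. Loading was higher in Het than in WT muscle for 6 of the 7 sirtuins by the group means and lower for Sirt6, and no sirtuin reached an adjusted p of 0.05. Sirt6 passed the study's threshold with lower loading in Het muscle (log2 difference -1.15), and Sirt2 passed it with higher loading (1.24). Sirt4 was 0.87 higher with an unadjusted p of 0.025 and did not reach a log2 difference of 1. Thus 2 of 7 sirtuins passed the study's threshold, against 13.6% of the 15564 genes tested, and 3 had an unadjusted p under 0.05, against 16.6%. By limma's adjusted p the count was 0 of 7, and 0% of all genes. The loading values of the 2 genotypes did not overlap for 4 sirtuins, Sirt2, Sirt4, Sirt5 and Sirt6, against 25.6% of all genes. The median difference over the 7 sirtuins was 0.69, beside 0.14 over all genes, and without WT mouse 2 these medians were 0.37 and 0.055.

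Sirt6, a chromatin deacetylase that represses glycolytic genes and takes part in DNA repair, had a loading of 0.73, 0.37 and 0.38 in the 3 WT mice. In the 3 Het mice it was -0.60, -0.72 and -0.66. Every WT mouse was above 0 and every Het mouse below it, and the spread within either genotype was smaller than the gap between them. The means were 0.49 ± 0.20 and -0.66 ± 0.06 (SD, n = 3 each), and the difference of -1.15 (SE 0.28) had an unadjusted p of 0.00415 and an adjusted p of 0.119 in limma. With only probes above background on all arrays (adjusted p = 0.0351), with another background correction (0.0361) or in the authors' normalized table (0.047), Sirt6 passed an adjusted p of 0.05. With that background correction (-0.93) and in the authors' table (-0.88) the difference did not reach 1, and with array brightness as a term (-0.94, unadjusted p = 0.117) or without pairing by mouse (unadjusted p = 0.0826) Sirt6 passed neither threshold. Without WT mouse 2 the difference was -1.21. A change of sign between all WT and all Het mice was seen for 7.33% of all genes, and for Sirt4 and Sirt6 among the sirtuins.

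Sirt4, a mitochondrial sirtuin that restrains glutamate dehydrogenase and fatty acid oxidation, had a loading of -0.32, -0.33 and -0.29 in the WT mice. The Het mice stood at 0.62, 0.91 and 0.16, the 0.91 of Het mouse 2 against a whole-muscle spot that was not well above background. The WT mice were all below 0 and nearly alike, while the Het mice were all above 0 and spread more widely. The means were -0.31 ± 0.02 and 0.56 ± 0.38 (SD, n = 3 each), a difference of 0.87 (SE 0.31, limma adjusted p = 0.228). Its unadjusted p rose above 0.05 without Het mouse 1, Het mouse 2 or WT mouse 3, and without Het mouse 3 the difference was 1.08 and passed the study's threshold. The second Sirt4 probe had a loading difference of 0.41 (SE 0.63, limma adjusted p = 0.75). It was above background on none of the 3 Het whole-muscle arrays, so this value gives no check.

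Sirt2, the main cytosolic sirtuin and a tubulin deacetylase, had a loading of -2.06, -0.50 and -0.52 in the WT mice and of -0.14, 0.41 and 0.38 in the Het mice. WT mouse 1 lay far below the rest. The difference was 1.24 (SE 0.49, limma adjusted p = 0.267), and it came to 0.72 without WT mouse 1, 1.14 without Het mouse 2 and 1.16 without Het mouse 3, each of which took Sirt2 out of the study's threshold. With array brightness as a term the difference was 0.27.

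Sirt5, which removes succinyl and malonyl groups in mitochondria, had a loading of 0.06, -1.15 and -0.46 in the WT mice. The Het mice stood close together at 0.24, 0.10 and 0.16. The groups did not overlap, but WT mouse 2, the mouse whose polysome array stood apart, was the lowest. The difference of 0.69 (SE 0.37, adjusted p = 0.393) became 0.37 without that mouse.

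Sirt3, the main mitochondrial deacetylase, had a loading of 0.12, 0.00 and -0.54 in the WT mice and of 0.29, 0.13 and -0.06 in the Het mice. These ranges overlapped, and the difference was 0.26 (SE 0.31, adjusted p = 0.683). It was 0.057 without WT mouse 3 and 0.39 without WT mouse 1. Sirt1, a nuclear deacetylase of transcription factors and of PGC-1alpha, had a loading of 0.46, -3.55 and -0.21 in the WT mice and of -0.22, 0.02 and 0.01 in the Het mice. A single polysome array, WT replicate 2, set the WT mean, and on it the Sirt1 probe was not well above background. The difference of 1.03 (SE 0.97, adjusted p = 0.599) turned to -0.19 without that mouse. With all mice it was 0.082 with normexp background correction, 0.092 in the authors' table and 0.11 with array brightness as a term.

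Sirt7, a nucleolar sirtuin linked to ribosomal RNA transcription, gave different pictures with its 2 bright probes. The brightest had a loading of -1.95, 0.41 and -1.13 in the WT mice and of -0.63, -0.26 and -0.10 in the Het mice. The second had 0.30, 0.30 and 0.57 in the WT mice and 0.96, 0.22 and 1.10 in the Het mice. With the first probe every mouse but WT mouse 2 was below 0, and with the second every mouse was above it. The Het minus WT differences were 0.56 (SE 0.59, adjusted p = 0.638) and 0.37 (SE 0.34, adjusted p = 0.594), and the first came to 1.21 without WT mouse 2, which passed the study's threshold (unadjusted p = 0.0152), and to 0.030 without WT mouse 1.

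**Figure D1:**
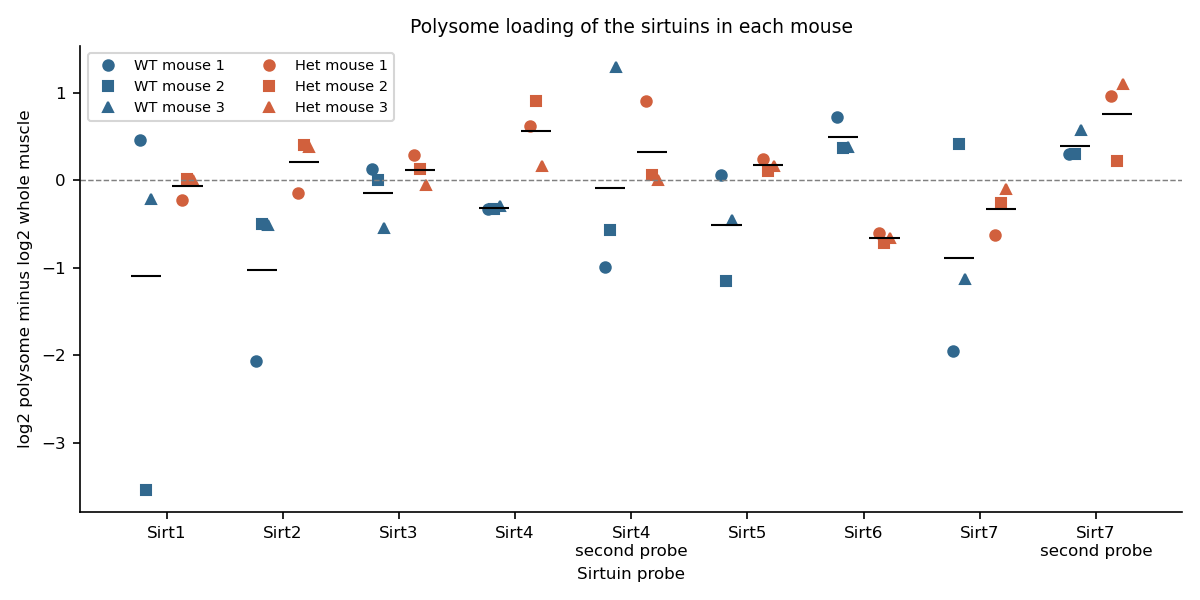
Polysome loading (log2 polysome minus log2 whole-muscle signal) of each mouse for the 9 tested sirtuin probes. Blue marks WT and orange Het mice, the shape gives the mouse number and black lines are group means. The genotypes lie on opposite sides of 0 for the brightest Sirt4 and Sirt6 probes, and WT mouse 2 is at -3.55 for Sirt1. The second Sirt4 probe was above background on no Het whole-muscle array.

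Loading combines a change in whole muscle with a change in polysomes, and these were also compared on their own. In whole muscle no sirtuin passed the study's threshold, against 5.02% of all genes, none had an unadjusted p under 0.05 (7.72% of all genes), and none passed an adjusted p of 0.05 (0.0129%). The whole-muscle groups did not overlap for 1 sirtuin, Sirt7, against 12.5% of all genes. The polysome arrays came from the same mice and were normalized and fitted together with the whole-muscle arrays. In polysomes no sirtuin passed the study's threshold (5.48% of all genes) or an adjusted p of 0.05 (0%). By an unadjusted p under 0.05 there were 3 in polysomes, Sirt2, Sirt4 and Sirt5, against 15.3% of all genes, and all were higher in Het muscle. The polysome groups did not overlap for 4 sirtuins, Sirt2, Sirt3, Sirt4 and Sirt5, against 22.2%. The median difference of the 7 sirtuins was 0.09 in whole muscle and 0.78 in polysomes, beside -0.01 and 0.04 over all genes. With 1 mouse left out these sirtuin medians ran from -0.065 to 0.20 and from 0.52 to 0.82. The polysome median was 0.25 with normexp background correction or in the authors' table, and 0.35 with only probes above background on every array.

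Among the nuclear members, the Sirt6 signal in whole muscle was 7.48, 8.55 and 8.49 in the WT mice and 8.81, 8.31 and 9.51 in the Het mice. In polysomes it was 8.21, 8.92 and 8.87 in the WT mice and 8.21, 7.59 and 8.85 in the Het mice. The genotypes overlapped in both kinds of RNA. The differences ran in opposite directions, 0.70 in whole muscle (SE 0.43, adjusted p = 0.699) and -0.45 in polysomes (SE 0.43, adjusted p = 0.586), and neither reached an adjusted p of 0.05. Without Het mouse 2 they were 0.99 (unadjusted p = 0.0436) and -0.13, and the whole-muscle difference was 0.36 without WT mouse 1 and 0.39 without Het mouse 3. The polysome difference was -0.68 without WT mouse 1 and -0.76 without Het mouse 3.

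Sirt1 was at 5.18, 5.58 and 5.70 in WT and 5.76, 5.66 and 5.30 in Het whole muscle. In polysomes it was at 5.65, 2.03 and 5.49 in WT and 5.54, 5.68 and 5.31 in Het mice. All values but that of WT polysome replicate 2 lay within 1 log2 unit of each other. The differences were 0.09 in whole muscle (SE 0.74, adjusted p = 0.998) and 1.12 in polysomes (SE 0.74, adjusted p = 0.459), and the latter was -0.06 without WT mouse 2.

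Among the tested probes, the brightest Sirt7 probe was the only one whose whole-muscle groups did not overlap, at 9.08, 9.34 and 8.81 in WT and 7.93, 8.38 and 8.80 in Het mice. Its closest values, 8.81 and 8.80, were almost equal. The difference was -0.71 (SE 0.59, adjusted p = 0.823), and the second Sirt7 probe had -0.60 (SE 0.33, adjusted p = 0.659). In polysomes the brightest probe was at 7.13, 9.75 and 7.68 in WT and 7.31, 8.12 and 8.70 in Het mice. WT replicate 2 was the highest of these, and the difference of -0.15 (SE 0.59, adjusted p = 0.91) became 0.63 without it.

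Sirt2, in the cytosol, was at 9.65, 9.17 and 8.99 in WT and 9.03, 8.83 and 8.78 in Het whole muscle. In polysomes it was at 7.59, 8.67 and 8.47 in WT and 8.89, 9.24 and 9.15 in Het mice. The WT mice were the higher group in whole muscle, with 1 Het mouse among them, and the lower group in polysomes, without overlap. The differences were -0.39 (SE 0.29, adjusted p = 0.79) and 0.85 (SE 0.29, adjusted p = 0.27). Without WT mouse 1 they were -0.20 and 0.52, and without WT mouse 2 the polysome difference was 1.06 and passed the study's threshold. Without Het mouse 2 its unadjusted p was 0.0601.

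**Figure D2:**
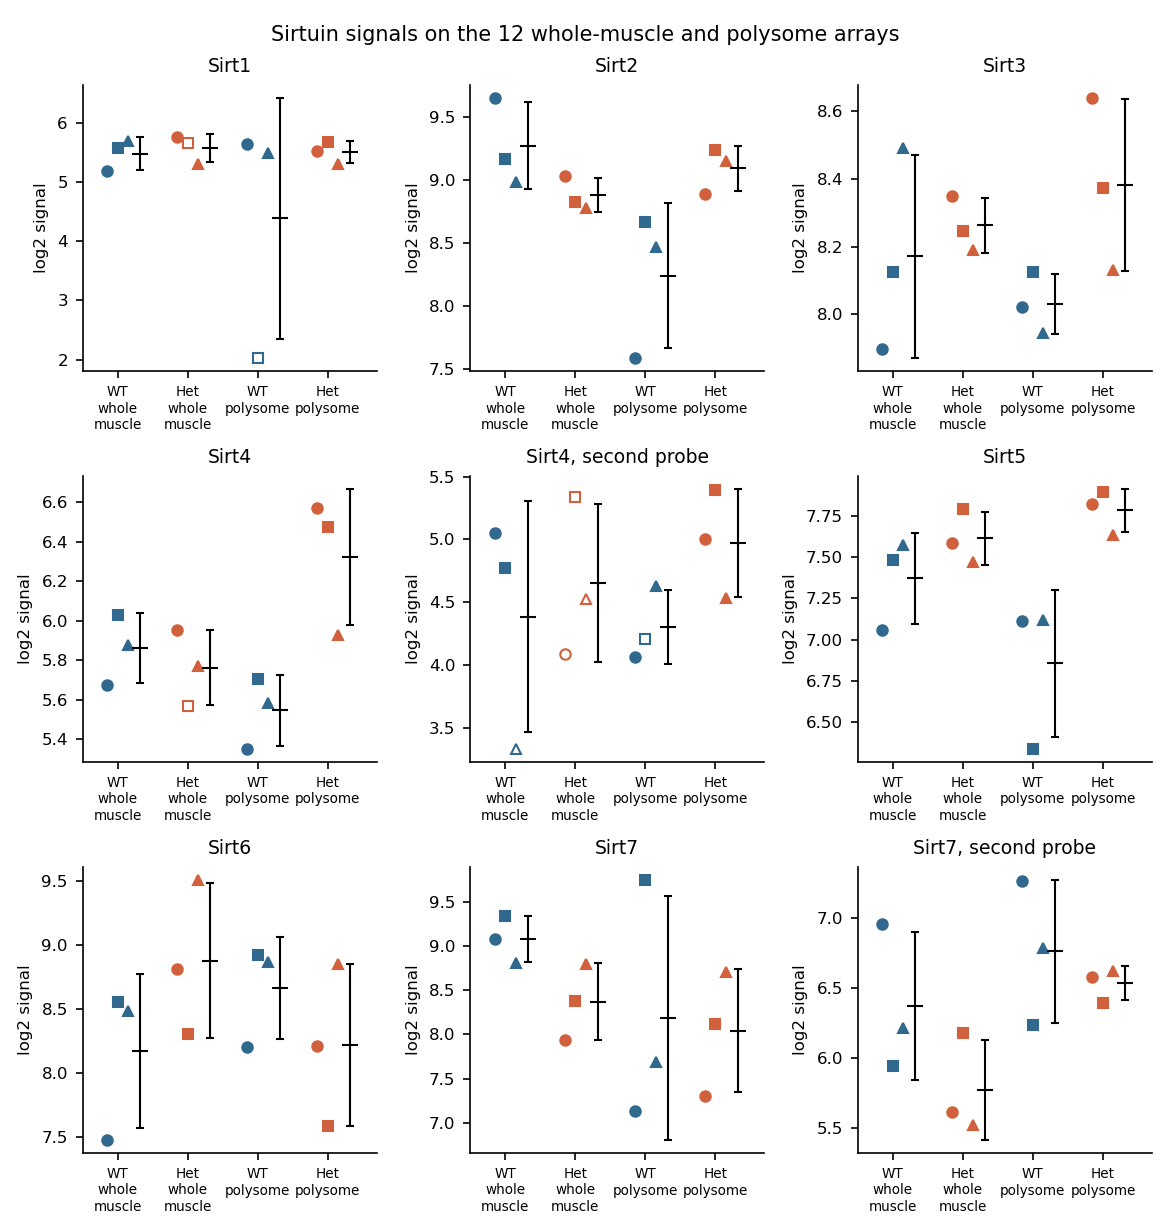
Log2 signal of the 9 tested sirtuin probes on the 12 whole-muscle and polysome arrays (WT blue, Het orange, shape by mouse number, open where the spot was not well above background). Black marks are means ± SD of 3 mice, and each panel has its own axis. The Het polysome signals of Sirt2, Sirt3, Sirt5 and the brightest Sirt4 probe lie above all WT polysome signals of the same probe.

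Of the mitochondrial members, Sirt5 was at 7.05, 7.48 and 7.57 in WT and 7.58, 7.79 and 7.47 in Het whole muscle. In polysomes it was at 7.11, 6.34 and 7.12 in WT and 7.82, 7.89 and 7.64 in Het mice. The genotypes overlapped in whole muscle and were apart in polysomes. The polysome difference, 0.93 (SE 0.26), had the lowest unadjusted p of the family in that comparison, 0.00393, with an adjusted p of 0.226. It was 0.67 without WT mouse 2, and above 1, past the study's threshold, without WT mouse 1, WT mouse 3 or Het mouse 3.

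Sirt4 was at 5.67, 6.03 and 5.87 in WT and 5.95, 5.57 and 5.77 in Het whole muscle. In polysomes it was at 5.35, 5.70 and 5.58 in WT and 6.57, 6.47 and 5.93 in Het mice. The Het polysome arrays were again all higher than the WT polysome arrays while the whole-muscle groups overlapped. The polysome difference was 0.78 (SE 0.23, unadjusted p = 0.00622, adjusted p = 0.243), and the second probe had 0.68 (SE 0.46, adjusted p = 0.465) with overlapping groups. Only in Het polysomes was the second probe above background on every array, and it was tested through that group. Its higher value there is therefore no check of the brightest probe.

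Sirt3 was at 7.90, 8.12 and 8.49 in WT and 8.35, 8.25 and 8.19 in Het whole muscle. In polysomes it was at 8.02, 8.12 and 7.95 in WT and 8.64, 8.37 and 8.13 in Het mice. The lowest Het polysome value was just above the highest WT one. The differences were 0.09 (SE 0.22, adjusted p = 0.986) and 0.35 (SE 0.22, adjusted p = 0.433). The polysome difference was 0.22 without Het mouse 1 and 0.48 without Het mouse 3.

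**Figure D3:**
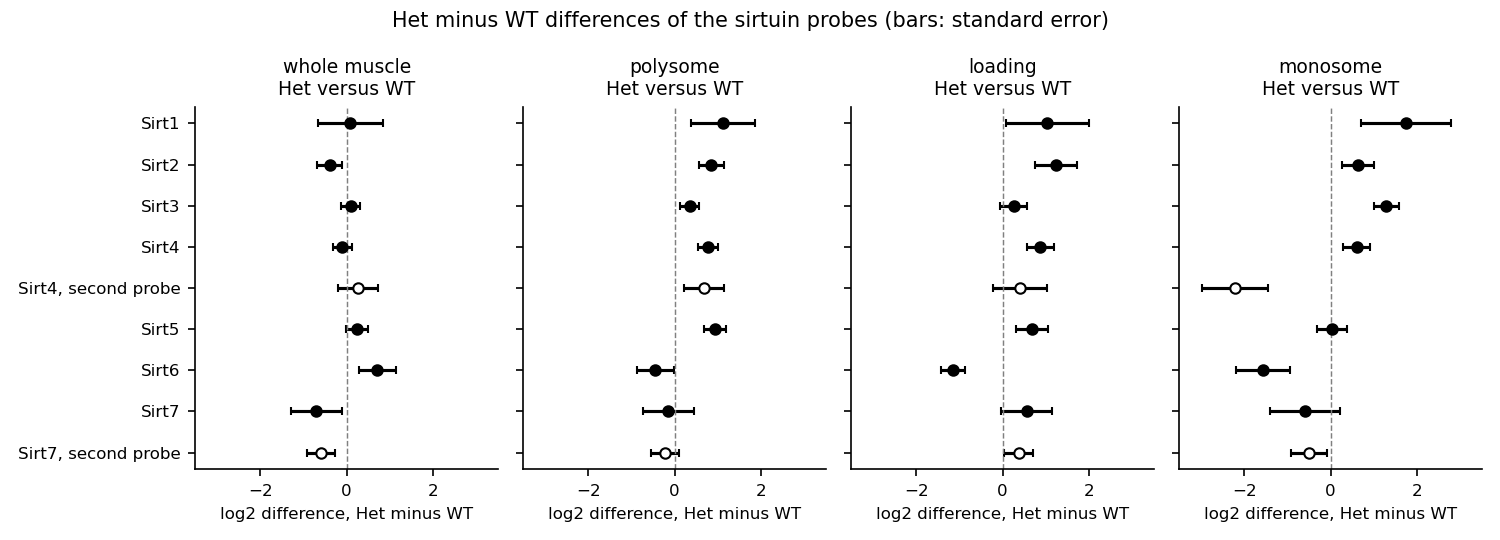
Het minus WT log2 differences of the 9 tested sirtuin probes in whole muscle, polysomes, loading and monosomes, with standard errors as bars (filled: brightest probe of a gene, open: second probe). By the brightest probes, loading is -1.15 for Sirt6 and above 0 for the other sirtuins. The second Sirt4 probe was above background on no Het whole-muscle array and, in monosomes, on WT replicate 2 only.

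Within each genotype, polysome and whole-muscle RNA of the same mice were compared next. No sirtuin passed an adjusted p of 0.05 in WT muscle, where 21.2% of all genes did, or in Het muscle, where 7.39% did. By an unadjusted p under 0.05 there were Sirt2 and Sirt6 in WT muscle, against 38.2% of all genes, and Sirt4 and Sirt6 in Het muscle, against 29.3%. In WT muscle Sirt2 was lower in polysomes by -1.03 (SE 0.34, adjusted p = 0.0731), and by -0.51 without WT mouse 1 (unadjusted p = 0.0906). Sirt6 was the only sirtuin whose WT mean was higher in polysomes (0.49, SE 0.20, adjusted p = 0.115), with its brightest probe, and its unadjusted p rose above 0.05 in 5 of the 6 fits that left out a mouse. In Het muscle it was lower in polysomes by -0.66 (SE 0.20, adjusted p = 0.0828), while Sirt4 was higher by 0.56 (SE 0.22, adjusted p = 0.146). The adjusted p of Sirt6 was 0.0486 without WT mouse 2, and its unadjusted p was 0.0539 to 0.0585 without any one of the Het mice. That of Sirt4 rose above 0.05 in 3 of the 6 fits. Without WT mouse 2, the brightest Sirt7 probe was lower in WT polysomes by -1.54 with an adjusted p of 0.0222. The second Sirt7 probe was higher in polysomes in both genotypes, by 0.39 and 0.76 (adjusted p = 0.273 and 0.094).

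The monosome arrays, 2 for each genotype, allow the 3 kinds of RNA to be set in order. Averaged over the genotypes, 2 of 7 sirtuins, Sirt4 and Sirt5, differed between polysomes and monosomes at an adjusted p under 0.05, against 26.5% of the 15864 genes tested on 16 arrays. The second Sirt7 probe also passed (0.83, adjusted p = 0.0356), while the brightest did not. Between monosomes and whole muscle Sirt4 and Sirt5 were again the 2 that differed, against 25.3%. These comparisons share the monosome arrays, and their fit does not pair the RNA of a mouse. With the mouse as a replicate block, Sirt4 and Sirt6 passed between polysomes and monosomes (adjusted p = 0.0208 and 0.0126) and Sirt5 did not (0.091). Between monosomes and whole muscle Sirt4, Sirt5, Sirt6 and Sirt7 passed with that block (adjusted p = 0.0391, 0.0472, 0.0198 and 0.0145). On the 16-array scale, Sirt4 was at 4.63 and 4.37 in WT monosomes and 4.86 and 5.34 in Het monosomes, and between 5.11 and 5.77 in WT whole muscle and polysomes. Het whole muscle ran from 5.32 to 5.69 and Het polysomes from 5.67 to 6.29. On WT monosome replicate 2 the Sirt4 spot was not well above background. By the measured signals, monosomes were the lowest group of Sirt4 in both genotypes, with the higher Het monosome array just inside the whole-muscle range. Whole muscle and polysomes of WT mice overlapped. The polysome minus monosome difference was 0.88 (SE 0.20, limma adjusted p = 0.00746) and the monosome minus whole-muscle difference -0.76 (SE 0.20, adjusted p = 0.0201). The second Sirt4 probe was above background on 1 of the 4 monosome arrays, WT replicate 2, and was not used to order the 3 kinds of RNA.

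Sirt5 was at 5.97 and 6.73 in WT monosomes and 6.45 and 6.29 in Het monosomes. WT whole muscle ran from 6.77 to 7.28 and WT polysomes from 6.07 to 6.83, while Het whole muscle ran from 7.18 to 7.50 and Het polysomes from 7.34 to 7.60. In Het muscle monosomes were apart from both other kinds, and in WT muscle they overlapped with polysomes only. The differences were 0.67 for polysomes over monosomes (SE 0.23, adjusted p = 0.0439) and -0.84 for monosomes against whole muscle (SE 0.23, adjusted p = 0.0215). Without Het mouse 1 neither Sirt4 nor Sirt5 passed in either comparison, and without WT mouse 2 both passed in both. Without Het mouse 3 or WT mouse 3 neither passed between monosomes and whole muscle, and Sirt5 passed between polysomes and monosomes only without WT mouse 2.

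Sirt6 was highest in monosomes in WT muscle only. It was at 9.06 and 10.98 in WT monosomes, above WT polysomes (7.91 to 8.62) and WT whole muscle (7.19 to 8.25). In Het muscle its monosome values, 8.39 and 8.53, lay within those of whole muscle (8.01 to 9.22) and polysomes (7.30 to 8.55). The highest value came from WT monosome replicate 2. The polysome minus monosome difference was -1.10 (SE 0.40, adjusted p = 0.0592). It became -0.68 without WT mouse 2 and -1.47, with an adjusted p under 0.05, without WT mouse 1.

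Between the genotypes, monosomes of 2 of 7 sirtuins, Sirt3 and Sirt6, passed the study's threshold, against 28.2% of all genes. The same 2 had an unadjusted p under 0.05 (33.0% of all genes) and none an adjusted p under 0.05 (0.460%). The summed markers of 5 of the 6 cell type lists were also apart between WT and Het monosomes. The sum of skeletal muscle markers was lower in WT (18.77 to 19.01, Het 19.13 on both arrays). The sums of blood (14.24 to 15.68, Het 13.89 to 14.14), immune, fibroblast and adipocyte markers were higher in WT. Single markers did not all follow the sums. By the group means, 6 of 8 muscle, 2 of 6 fibroblast, 1 of 5 adipocyte, 0 of 5 blood and 0 of 7 immune markers were higher in Het monosomes. The part of these differences in the monosome results was not tested. Sirt3 was at 7.51 and 7.19 in WT and 8.73 and 8.54 in Het monosomes, a difference of 1.29 (SE 0.29, unadjusted p = 0.000602, adjusted p = 0.0655). This gap was wider than the spread within either genotype, and it was 1.12 without WT mouse 2 and 1.45, with an adjusted p under 0.05, without WT mouse 1. Sirt6 was lower in Het monosomes by -1.56 (SE 0.62, adjusted p = 0.12), by -0.60 without WT mouse 2, and by -2.52, with an adjusted p under 0.05, without WT mouse 1. It left the study's threshold without WT mouse 2, and also without Het mouse 1 or Het mouse 3. Sirt1 was at 5.04 and 1.76 in WT and 5.12 and 5.17 in Het monosomes. Its difference of 1.75 (SE 1.04, adjusted p = 0.234) became 0.11 without WT mouse 2 and 3.38 without WT mouse 1. On the monosome array of WT mouse 2 Sirt1 was not well above background. The brightest Sirt4 probe was 0.60 higher in Het monosomes (SE 0.31, adjusted p = 0.181). This difference was 0.36 without Het mouse 3 and 0.84 without Het mouse 1, each with 1 Het monosome array left. For Sirt2, Sirt5 and Sirt7 the differences were 0.63, 0.02 and -0.59 with adjusted p-values of 0.225, 0.966 and 0.605. Without WT mouse 2 those of Sirt5 and Sirt7 were both 0.40. Leaving out WT mouse 1 leaves only WT replicate 2, which stood apart, in the WT monosome group.

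**Figure D4:**
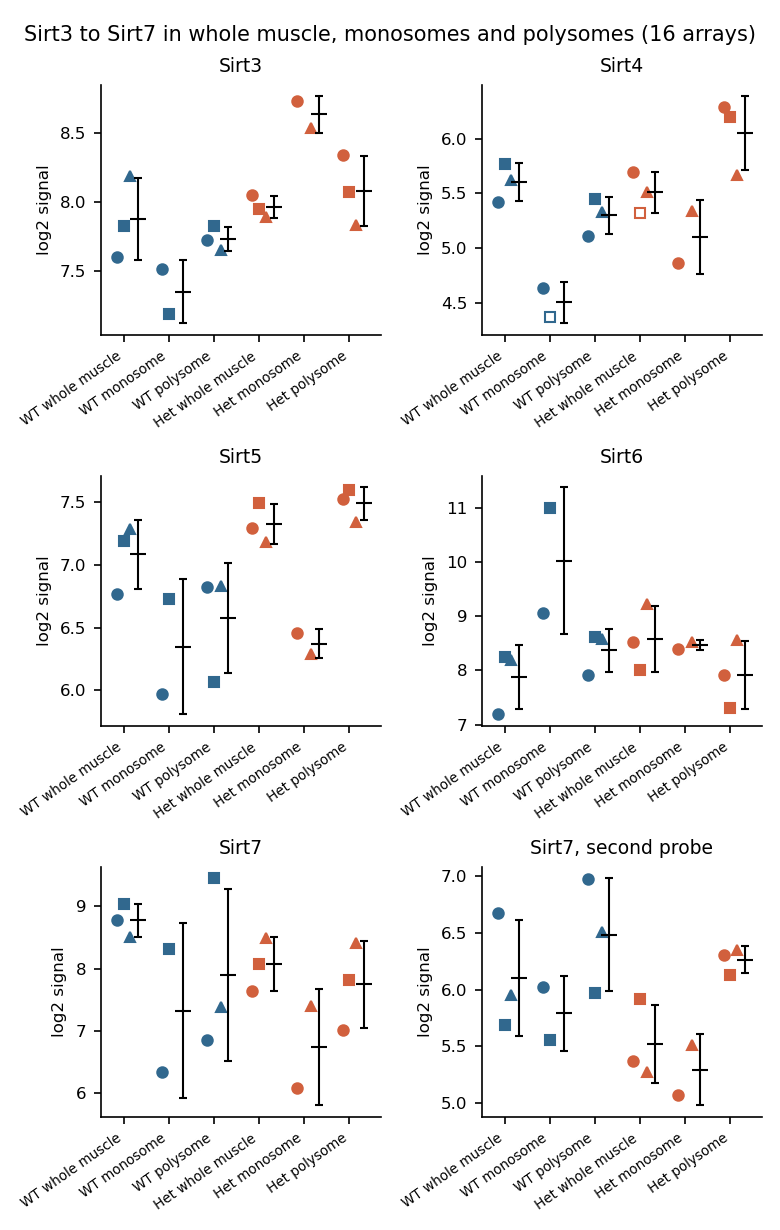
Log2 signal of Sirt3 to Sirt7 (brightest probes, and the second Sirt7 probe) in the 3 kinds of RNA of both genotypes on the 16-array scale (WT blue, Het orange, shape by mouse number, open where not well above background; black marks: means ± SD of 2 or 3 mice). Monosomes are the lowest Sirt4 group of each genotype, and WT monosomes are the highest Sirt6 group.

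The supply of NAD was followed with 19 genes of NAD synthesis and salvage, of which 12 were tested. How far the values in this and the following lists depend on WT mouse 2, whose polysome and monosome arrays stood apart, was not examined. In loading, Nampt, which catalyses the rate-limiting step of NAD salvage, was 1.13 higher in Het muscle (SE 0.29, adjusted p = 0.13), and Qprt, which turns quinolinate into a NAD precursor, was -1.57 lower (SE 0.36, adjusted p = 0.111). These were the only 2 of the 12 past the study's threshold, beside 13.6% of all genes, and their directions were opposite. The median of the 12 was -0.13, beside 0.14 over all genes. Nampt differed little between genotypes in whole muscle (-0.14, SE 0.32, adjusted p = 0.985) and was 0.99 higher in Het polysomes (SE 0.32, adjusted p = 0.254). At an adjusted p under 0.05, 3 of the 12 differed between WT polysomes and whole muscle, beside 21.2% of all genes. Nampt was lower in polysomes by -1.40 (SE 0.21, adjusted p = 0.00881), while Qprt (1.06, SE 0.25, adjusted p = 0.0291) and Naprt1 (0.81, SE 0.21, adjusted p = 0.0381) were higher. In Het muscle Nampt had a difference of -0.27 (SE 0.21, adjusted p = 0.421). Qprt in whole muscle was 1.10 higher in Het mice (SE 0.26, adjusted p = 0.292). Nmrk2, the muscle nicotinamide riboside kinase, had a loading difference of -0.22 (SE 0.33, adjusted p = 0.751).

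Other enzymes that consume NAD were given by 21 genes, of which 15 were tested. Their loading was higher in Het muscle for 13 of 15 by the group means, with a median of 0.40, but no member that was higher passed the study's threshold. Parp4, a vault-associated PARP, was lower and did pass it, as 1 of 15 beside 13.6% of all genes (-1.25, SE 0.45, adjusted p = 0.236). The loading differences of Parp1, the DNA damage PARP, and Cd38, a NAD glycohydrolase, were 1.41 (SE 0.60, adjusted p = 0.297) and 0.91 (SE 0.39, adjusted p = 0.3). Between WT polysomes and whole muscle 5 of the 15 passed an adjusted p of 0.05, beside 21.2% of all genes, 2 higher and 3 lower in polysomes. Parp1 was lower in WT polysomes by -2.14 (SE 0.42, adjusted p = 0.0189), while in Het muscle the value was -0.73 (SE 0.42, adjusted p = 0.294).

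Regulators and deacylation targets of the sirtuins were given by 32 genes, of which 25 were tested. In loading 4 of the 25 passed the study's threshold, all higher in Het muscle, beside 13.6% of all genes, and none passed an adjusted p of 0.05. The largest of them were Ccar2, a protein that inhibits Sirt1 (2.74, SE 0.82, adjusted p = 0.174), Pdha1, the E1 subunit of pyruvate dehydrogenase (2.48, SE 0.62, adjusted p = 0.126), and Myod1, a muscle transcription factor (2.46, SE 0.78, adjusted p = 0.195). The median over the 25 was 0.32. In whole muscle 2 of the 25 passed, beside 5.02% of all genes, and both were lower in Het mice, Ccar2 (-2.39, SE 0.49, adjusted p = 0.207) and Trp53, the p53 gene (-1.86, SE 0.61, adjusted p = 0.442). Ppargc1a, which encodes PGC-1alpha, and Foxo1 had loading differences of 0.28 (SE 0.32, adjusted p = 0.67) and -0.69 (SE 0.34, adjusted p = 0.351).

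The same list was compared between polysomes and monosomes. At an adjusted p under 0.05, 11 of the 25 were higher in polysomes, beside 17.5% of all genes. None was lower, where 26.5% of all genes differed in either direction. The median difference of the 25 was 0.72, beside 0.21 over all genes and 0.46 to 0.71 in the other 3 lists. In the marker lists the medians ran from -0.02 for blood to 1.61 for adipocyte markers, with 0.60 for skeletal muscle. WT monosome replicate 2, which stood apart, is part of this comparison. The largest differences among members past the study's threshold were those of the mitochondrial enzymes Acadl, a long-chain acyl-CoA dehydrogenase (2.11, SE 0.79, adjusted p = 0.0633), Acss1, an acetyl-CoA synthetase (1.90, SE 0.73, adjusted p = 0.0692), and Pdha1 (1.76, SE 0.55, adjusted p = 0.033).

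Lysine acetyltransferases, which add the groups that sirtuins remove, were given by 18 genes, of which 17 were tested. In loading 1 of the 17 passed the study's threshold (13.6% of all genes), Kat2b, with a difference of 2.55 (SE 0.72, adjusted p = 0.155). The median of the 17 was 0.08, below that over all genes. The loading differences of Ep300 and Kat2a were 0.53 (SE 0.55, adjusted p = 0.63) and -0.25 (SE 0.30, adjusted p = 0.685).

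The sirtuins did not vary alike over the 16 arrays. The genes whose log2 signal followed each most closely, among the 7736 or 7737 brightest gene probes above background on all arrays, were Cops8 and Snrpn for Sirt2 (Pearson r 0.901 and 0.89), Ndufa6 and Atp5sl for Sirt3 (0.901 and 0.879), Mtmr3 and Eps15l1 for Sirt4 (0.958 and 0.897) and Fxr1 and Prr33 for Sirt5 (0.9 and 0.893). Ndufa6 and Atp5sl encode proteins of mitochondrial complex I and of its assembly. For Sirt6 they were Prss58, a trypsin-like protease, and Mtap, of methionine salvage (both 0.987), and for Sirt7 Serpina11, a serine protease inhibitor, and Hoxb6, a homeobox factor (0.982 and 0.981). Of all compared genes, 7.72% had an r above 0.9 with Sirt6, against 0.0129% with Sirt4 and 0.207% with Sirt7. The leading genes of Sirt1, Eif4a2 and Ddx5 (0.976 and 0.967), fell to 0.522 and 0.448 without WT polysome and monosome replicate 2, while those of Sirt6 stayed at 0.983 and 0.977 over the other 14 arrays. Arrays share mice, slides and brightness, so these values describe likeness only. The Sirt6 values rest on its brightest probe alone, and whether the probes also bind other transcripts was not tested.

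The loading differences were also computed under other processing. For Sirt6 all 17 alternatives run on its brightest probe gave a difference below 0, between -1.45 and -0.77, and for Sirt2, Sirt4 and Sirt5 every alternative gave one above 0. Sirt1, Sirt3 and Sirt7 changed sign under at least 1 alternative.

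**Figure D5:**
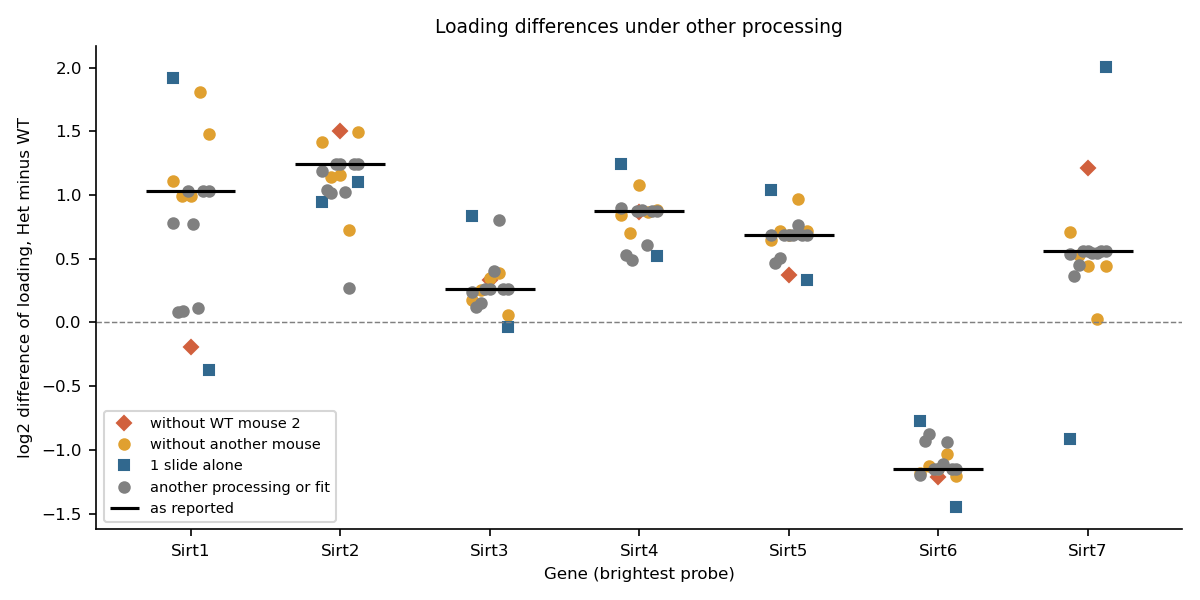
Het minus WT difference of polysome loading of each sirtuin (brightest probe) as reported (black line), without WT mouse 2 (diamond), without another mouse (yellow), on 1 slide alone (blue) and under other processing or fits (grey). Sirt6 stays below 0 and Sirt2, Sirt4 and Sirt5 stay above 0 throughout, while Sirt1, Sirt3 and Sirt7 cross 0.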

How the data were processed

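RNA of whole muscle, polysomes and monosomes was hybridised in 1 colour (Cy3) to Agilent mouse arrays. Per the file headers, Agilent Feature Extraction 11.0.1.1 made the deposited spot intensity values, a background-subtracted and detrended processed signal. The authors' table holds log2 values, which ranked as the raw median signal of each array (Spearman 1), with medians of 5.68 to 5.70. It was used as an alternative.

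Spots marked as outliers were dropped, spots of 1 probe averaged, and log2 intensity quantile normalized over 12 or 16 arrays with limma 3.58.1 in R 4.3.3. No spot was saturated. Tested were 19812 and 20250 probes, and array number limits the precision. Loading was fitted on differences within mice, since the design states that each mouse gave each kind of RNA. Deviations of whole-muscle and polysome arrays from their group means correlated within mice at r = 0.0583 to 0.485. The smallest exact p with 2 monosome arrays against 2 is 0.333. Arrays lay on 2 slides of 8, each scanned once, and no mouse had both its whole-muscle and polysome array on 1 slide.

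Calls used an adjusted p under 0.05, or an absolute log2 difference above 1 with an unadjusted p under 0.05. Named from the lists were 8 preset genes and up to 3 members of largest difference past either threshold, and for each sirtuin the 2 genes of highest correlation over 16 arrays. The members and lists were chosen with earlier results of these data known. The fits were tested on simulated data. Alternatives were other scalings, backgrounds, filters, slide and brightness terms, single slides, pairing, the methods' t-test, each mouse left out, and second probes.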

Additional observations from a re-analysis of the deposited data

Results flagged for a closer look

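For Sirt4 and Sirt6 the polysome loading had opposite signs in every WT and every Het mouse. The Het minus WT difference of loading was 0.87 for Sirt4, with WT mice below 0 and Het mice above 0, and -1.15 for Sirt6, with WT mice above 0 and Het mice below 0. The test of these differences is the loading fit itself, in which limma gave adjusted p-values of 0.228 and 0.119. The whole-muscle spot of the brightest Sirt4 probe was not well above background on Het mouse 2. The second Sirt4 probe was above background on no Het whole-muscle array and gives no check of the sign. Groups of 2 or 3 arrays were not tested for outlying samples.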

How the results depend on the processing

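Counts are of the 7 sirtuins. In loading, 2 passed the study's threshold (Sirt2 and Sirt6); normexp background correction, the authors' table and a fit without pairing by mouse left 1 (Sirt2), no filter, slide as a term and the methods' t-test left 1 (Sirt6), array brightness as a term and slide 1 alone 0, slide 2 alone 1 (Sirt7), and leaving out 1 mouse 1 to 3. By adjusted p the loading count of 0 became 1 (Sirt6) with normexp, the authors' table or only probes above background on every array. In whole muscle 0 became 1 (Sirt7) on slide 2 alone, and in polysomes 0 became 0 to 1 with a mouse left out. In monosomes 2 became 1 with normexp and 0 on slide 1 alone, and 1 to 3 with a mouse left out; by adjusted p, 0 became 1 (Sirt3) with normexp, the authors' table, the stricter filter or no filter, 2 on slide 2 alone, and 0 to 3 with a mouse left out. Of polysomes against whole muscle, by adjusted p, 0 in WT became 2 with normexp and 1 with the authors' table, the stricter filter or no pairing, and 0 to 1 with a mouse left out; 0 in Het became 1 (Sirt6) with normexp, the authors' table or the stricter filter, and 0 to 1 with a mouse left out. Between polysomes and monosomes 2 became 1 with no filter or on slide 2 alone, 0 with brightness as a term or on slide 1 alone, and 0 to 2 with a mouse left out. Between monosomes and whole muscle 2 became 1 with brightness as a term, 0 on slide 1 alone, 4 with the replicate block that pairs RNA kinds by mouse, and 0 to 4 with a mouse left out. The cause of these changes was not tested. The block also lost Sirt5 and gained Sirt6 between polysomes and monosomes, which left that count at 2, and moved no other count by over 1.5 times.

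With normexp the median difference of the 7 sirtuins was 0.37 in loading and 0.25 in polysomes. Single differences changed sign as follows. With 75th percentile scaling, polysome minus monosome became 0.13 for Sirt2 and 0.076 for Sirt3, and monosome minus whole muscle -0.068 for Sirt3. With brightness as a term, polysome minus monosome became -0.76 for Sirt1 and 0.016 for Sirt3, Het polysome minus whole muscle -0.27 for Sirt2, and Het minus WT -0.13 for Sirt3 in whole muscle and 0.32 for Sirt7 in polysomes. Sirt5 in monosomes became -0.069 with normexp and -0.0025 in the authors' table. With second probes, Sirt7 polysome minus whole muscle became 0.39 in WT and 0.76 in Het mice, and Sirt4 Het minus WT 0.27 in whole muscle, where no Het array was above background, and -2.21 in monosomes, where WT replicate 2 alone was above background. On slide 1 alone, Het minus WT became -0.22 for Sirt1 and -0.27 for Sirt3 in whole muscle and -0.91 for Sirt7 loading, and for Sirt1 Het polysome minus whole muscle became 0.054 and polysome minus monosome -0.60. On slide 2 alone, loading became -0.38 for Sirt1 and -0.033 for Sirt3, Het minus WT 0.10 for Sirt4 in whole muscle, -0.44 for Sirt5 in monosomes and 0.73 for Sirt7 in polysomes, polysome minus whole muscle 0.11 for Sirt1 in WT, -0.10 for Sirt3 and 0.47 for Sirt7 in Het, and Sirt3 monosome minus whole muscle -0.019 and Sirt7 polysome minus monosome -0.10. With a mouse left out, Sirt1 ran from -0.19 to 1.81 in loading, -0.065 to 0.22 in whole muscle, -0.060 to 1.75 in polysomes, -1.88 to 0.13 for WT and -0.11 to 0.013 for Het polysome minus whole muscle. Sirt2 polysome minus monosome ran from -0.11 to 0.0096. Sirt3 ran from -0.045 to 0.25 in whole muscle, -0.27 to 0.062 for WT polysome minus whole muscle and -0.075 to 0.15 for monosome minus whole muscle. Sirt4 in whole muscle ran from -0.19 to 0.00023, Sirt5 in monosomes from -0.36 to 0.40, and Sirt7 from -0.67 to 0.63 in polysomes and -1.58 to 0.40 in monosomes.

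Signal over background limits Sirt1, above background on 13 of 16 arrays, and Sirt4, on 14 by its brightest probe. A single slide leaves few arrays in each group, and a group of 1 array is assumed to vary like the others.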
